A study of Rattus norvegicus with 6 samples.

Results

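The Acsm genes encode the acyl-CoA synthetase medium-chain family, and 5 of them were followed here in the liver of rats given the flame retardant TCEP. Members were taken as every non-control array probe, called a feature below, whose transcript accession maps to Acsm1, Acsm2, Acsm3, Acsm4 or Acsm5 in RefSeq. They comprised 5 of 15284 named genes and 9 of 61657 features on the array, 3 features for Acsm5, 2 each for Acsm1 and Acsm4, and 1 each for Acsm2 and Acsm3. The unnamed feature C_CA_D0499 was added because its array profile follows that of Acsm5. The family was chosen with the large treatment difference of Acsm5 in view, so the TCEP and corn oil values of its features are given as a description, with no test.

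The study used male Sprague-Dawley rats, Crl:CD(SD), bought at 5 weeks of age. A group of 3 rats received corn oil, the vehicle, and a group of 3 rats received 400 mg/kg/day of tris(2-chloroethyl) phosphate (TCEP), a chlorinated organophosphate ester. The treatment protocol states 9 weeks of dosing and the design text states 28 days, and the data do not settle which applies. Total liver RNA of each rat was labelled with Cy3 and hybridised to 1 single-colour Agilent array, so every value below comes from 1 of 6 livers.

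Acsm enzymes sit in the mitochondrial matrix and use ATP to join a carboxylic acid to coenzyme A. Their substrates are medium-chain fatty acids and foreign carboxylic acids such as benzoate and salicylate. In liver and kidney this activation precedes either beta-oxidation of the fatty acid or conjugation of the foreign acid with glycine, after which the conjugate leaves in urine. Acsm1 is known as a butyrate-activating enzyme, Acsm2 as a major liver and kidney form acting on foreign acids, Acsm3 as the product of the SA gene first studied in hypertensive rat strains, and Acsm4 as a form of the olfactory mucosa. Acsm5 is the least studied of the 5.

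All 5 genes lie in 1 cluster on chromosome 1, and all 5 have an entry among the RefSeq gene starts of build GRCr8. The sequences just before the starts of Acsm5, Acsm2 and Acsm3 are shown because the features of these 3 genes differed most among the livers. The plus strand is written 5′ to 3′, with capitals marking matches to any of 6 short motifs searched on both strands: AGGTCA (nuclear receptor motif), CACGTG (E-box), GTTAAT (HNF1 motif), TATAAA (core promoter box), CCAAT (NF-Y motif) and TGACTCA (AP-1 motif). For Acsm5 a 30-base stretch is given, chr1:183302358-183302387, which starts 151 bases before the listed start. For Acsm2 (chr1:183347455-183347704) and Acsm3 (chr1:183564402-183564651) the whole 250 bases are given.
Acsm5: gggacactCACGTGaaTGACCTttctgtta
Acsm2: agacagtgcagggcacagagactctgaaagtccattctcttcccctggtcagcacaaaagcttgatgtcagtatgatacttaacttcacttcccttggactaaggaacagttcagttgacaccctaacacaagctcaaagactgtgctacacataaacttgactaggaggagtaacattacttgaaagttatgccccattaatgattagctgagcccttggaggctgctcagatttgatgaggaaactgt
Acsm3: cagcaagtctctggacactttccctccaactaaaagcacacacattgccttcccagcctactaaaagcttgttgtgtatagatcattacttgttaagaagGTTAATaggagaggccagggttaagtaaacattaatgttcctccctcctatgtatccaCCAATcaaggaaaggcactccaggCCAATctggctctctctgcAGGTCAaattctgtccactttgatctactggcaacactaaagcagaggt

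The Acsm5 window held 1 CACGTG, 143 bases before the start, and 2 copies of AGGTCA on the minus strand, written TGACCT on the plus strand, at 135 and 85 bases before it. Among 33469 rat windows of the same length, 5.59% held CACGTG and 14.1% held AGGTCA on either strand. The Acsm3 window held 1 GTTAAT (a motif present in 6.45% of windows), 2 CCAAT (34%) and 1 AGGTCA. The Acsm1 window held 1 CCAAT, the Acsm4 window held 1 TGACTCA on the minus strand (4.05%), and none of the 5 held TATAAA (12.9%). None of the 6 motifs matched in the 250 bases before Acsm2. No matches overlapped. RefSeq lists further Acsm5 transcripts with an earlier start, and these matches are descriptions of letters only.

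Values are log2 of the processed signal minus the 75th percentile of the same array, so 0 is the level of a fairly bright feature and a difference of 1 is a doubling. A feature counts as measured where the scanner software placed all 3 livers of either group well above background, as it did for 37043 features. Of the 9 Acsm features 7 were measured, those of Acsm1, Acsm2, Acsm3 and Acsm5, and each of these 7 was well above background on all 6 arrays. The measured Acsm features included 5 with a higher mean in TCEP livers. In 3 of the 7 the groups did not overlap, 2 with every TCEP liver higher and 1 with every TCEP liver lower. Over all features 16.9% had groups that did not overlap in either direction. Because the family was picked on this contrast, nothing is read from these counts. In whole-liver RNA, fewer cells of a type and less RNA per cell cannot be told apart.

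Over the whole array, no feature passed an adjusted p of 0.05 in the limma fit (0% of 37043), with 0.299 as the lowest adjusted value. The same fit, before adjustment, placed 1792 features higher in TCEP (4.84%) and 1520 lower (4.10%) at p under 0.05. All TCEP arrays, and none from corn oil, were on 1 slide, so slide and treatment cannot be told apart. Corn oil 2 was on a slide of its own, scanned 23 days after the others, and had the lowest share of features well above background, 57.2%, against 61.6% to 64.4% on the other arrays. All 10 hepatocyte markers were well above background on every array, with summed signals, in multiples of the 75th percentile, of 6404 to 6720 in corn oil and 5860 to 6437 in TCEP. The 6 cholangiocyte markers read here were well above background throughout, and their summed level was 1.90 to 2.11 in corn oil and 2.20 to 3.08 in TCEP, groups that do not overlap. Of 12 leukocyte markers 11 were well above background throughout, Cd3e was on none, and their sum was 49.1, 84.0 and 100.3 in corn oil 1 to 3 and 65.9 to 74.7 in TCEP. The part of either marker list in the Acsm values was not tested.

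Acsm5 gave the largest treatment difference on the array by one feature and a small difference of opposite direction by another. Feature A_64_P151353 read 2.40, 1.22 and 1.57 in corn oil livers 1 to 3 and 5.46, 5.14 and 6.47 in TCEP livers 1 to 3. All TCEP livers stood far above all corn oil livers, with TCEP 3 the highest of its group and corn oil 1 the highest of the other. The means were 1.73 ± 0.61 and 5.69 ± 0.69 (SD, n = 3 each), a log2 difference of 3.96 (SE 0.43) or 15.6-fold, ranked 1 of 37043 measured features by absolute difference.

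Feature A_44_P212813, assigned to the same Acsm5 transcript, read 0.44, -0.43 and -0.31 in corn oil and 1.57, 1.39 and 2.73 in TCEP. The order of the 6 livers was the same as for A_64_P151353, and the groups did not overlap. The mean went from -0.10 ± 0.47 to 1.90 ± 0.72 (SD, n = 3 each), a log2 difference of 2.00 (SE 0.41), or 3.99-fold, ranked 36 by absolute difference.

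The third Acsm5 feature, A_44_P992673, read 3.45, 2.57 and 2.66 in corn oil and 2.45, 2.04 and 2.40 in TCEP. Here every TCEP liver lay below every corn oil liver, with corn oil 1 well above the rest. The means were 2.89 ± 0.49 and 2.30 ± 0.22 (SD, n = 3 each), a log2 difference of -0.60 (SE 0.26), so that corn oil was 1.51-fold higher, ranked 1459. Without corn oil 1 the difference was -0.32, and without corn oil 2 it was -0.76.

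C_CA_D0499, which has no gene name in the files, read 2.90, 1.93 and 2.20 in corn oil and 5.72, 5.41 and 6.67 in TCEP. Its livers were ordered as those of Acsm5 feature A_64_P151353, with no overlap between groups. The means were 2.34 ± 0.50 and 5.93 ± 0.66 (SD, n = 3 each), a log2 difference of 3.59 (SE 0.39) or 12.1-fold, ranked 2 of all measured features directly after Acsm5. The array carries 796 features with the prefix C_CA, of which 771 were measured and 0 had a gene symbol.

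**Figure D1:**
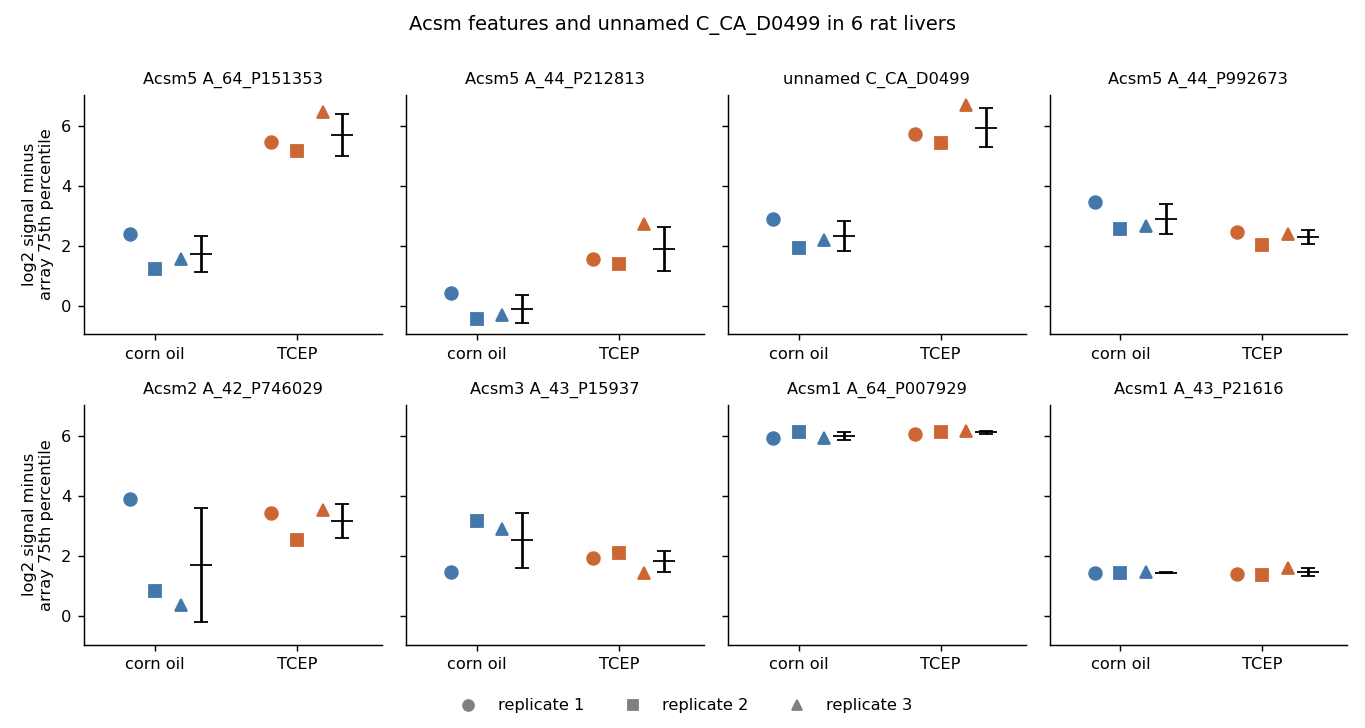
Normalised log2 signal of the 7 measured Acsm features and the unnamed C_CA_D0499 in each of 6 livers. The vertical axis is log2 signal minus the array's 75th percentile. Marker shapes are replicate numbers, which are not used as pairs here. Black bars are mean ± SD, n = 3. A_64_P151353, A_44_P212813 and C_CA_D0499 are higher in every TCEP liver, A_44_P992673 is lower in every TCEP liver, and Acsm2 and Acsm3 overlap between groups. Heights of different features are not comparable.

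The disagreement among the Acsm5 features can be followed liver by liver. The value of A_64_P151353 minus that of A_44_P992673 was -1.16 ± 0.16 in corn oil and 3.39 ± 0.59 in TCEP (SD, n = 3 each), a shift of 4.56 between groups. The value of A_64_P151353 minus A_44_P212813 was 1.83 ± 0.16 and 3.79 ± 0.08, a shift of 1.96. The 3 features thus changed unequally between groups although the array assigns all of them to 1 transcript record. A_44_P212813 minus A_44_P992673 was almost constant over the corn oil livers, -3.00 ± 0.02, and varied over the TCEP livers, -0.40 ± 0.64. C_CA_D0499 minus A_64_P151353 was 0.61 ± 0.11 and 0.24 ± 0.03, a shift of -0.37. The position of each feature in the transcript is not given in the sources used here.

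Scaling did not turn the direction of any Acsm5 feature. Over 16 alternative settings, some of which cannot change a difference, that of A_64_P151353 ran from 3.57, without TCEP 3, to 4.29, without corn oil 1. That of A_44_P212813 ran from 1.58 to 2.27, and that of C_CA_D0499 from 3.22 to 3.87. Without corn oil 2, which leaves the arrays of 1 scan day, the 3 Acsm5 differences were 3.71, 1.83 and -0.76.

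**Figure D2:**
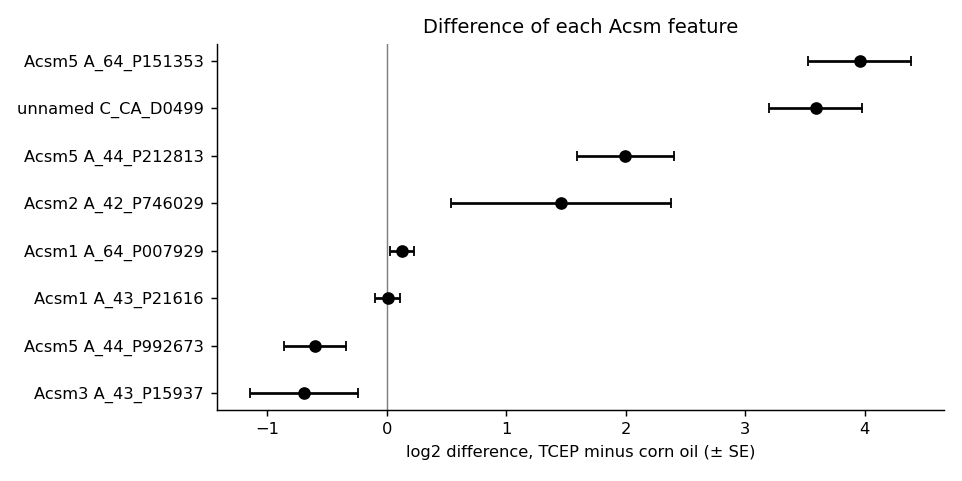
Log2 difference, TCEP minus corn oil, of each measured Acsm feature and of C_CA_D0499 (points; bars are ± SE of the limma fit, 3 livers per group). The Acsm5 features lie at 3.96, 2.00 and -0.60, while both Acsm1 features lie close to 0.

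Acsm2, the liver and kidney form, varied more among the corn oil livers than between the groups. Feature A_42_P746029 read 3.90, 0.85 and 0.39 in corn oil and 3.46, 2.53 and 3.53 in TCEP. Corn oil 1 was the highest of all 6 livers, corn oil 2 and 3 were the lowest, and the groups overlapped. The means were 1.72 ± 1.91 and 3.17 ± 0.55 (SD, n = 3 each), a log2 difference of 1.46 (SE 0.92) or 2.75-fold. The corn oil livers spanned an 11.4-fold range, and 99.8% of measured features had a smaller corn oil SD, the median being 0.185. The difference was 2.55 without corn oil 1 and 0.79 without corn oil 3.

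Acsm3, the SA gene product, showed the opposite arrangement. Feature A_43_P15937 read 1.49, 3.17 and 2.92 in corn oil and 1.95, 2.11 and 1.45 in TCEP. Corn oil 1 was low and lay within the TCEP range, while corn oil 2 and 3 were the highest livers. The means were 2.53 ± 0.91 and 1.83 ± 0.35 (SD, n = 3 each), a log2 difference of -0.69 (SE 0.45), or 1.62-fold higher in corn oil. Its corn oil livers spanned a 3.20-fold range, with a smaller corn oil SD in 97.6% of measured features. Without corn oil 1 the difference was -1.21, and without corn oil 2 it was -0.37. The leukocyte marker sum, lowest in corn oil 1 at 49.1, was ordered over the 3 corn oil livers opposite to Acsm2, and its part in the Acsm2 and Acsm3 values was not tested.

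Acsm1, the butyrate-activating form, was nearly constant. Feature A_64_P007929 read 5.94, 6.14 and 5.93 in corn oil and 6.08, 6.14 and 6.17 in TCEP, and the groups overlapped. Its log2 difference was 0.13 (SE 0.10), ranging from 0.03 with quantile normalization to 0.20 without corn oil 2. Feature A_43_P21616 read 1.44, 1.45 and 1.48 in corn oil and 1.40, 1.37 and 1.62 in TCEP. Its difference was 0.01 (SE 0.10), and 3 of 16 alternatives turned its sign, with a range of -0.07 to 0.07. The corn oil SD of this second feature, 0.017, was among the smallest on the array, with only 0.88% of measured features below it.

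Acsm4, the olfactory form, was not well above background on any of the 6 arrays with either feature, A_44_P269070 or A_64_P151358. The scanner software's error of the processed signal was 23.5% to 100.4% of the signal for the first and 24.9% to 46.1% for the second, against at most 10.1% for the measured Acsm features. No fold is given for it.

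The profiles of the family over the livers are described here by Pearson correlations over 6 arrays that share the same normalization and 2-group structure. A_64_P151353 correlated at 0.9998 with C_CA_D0499, the highest of all measured features. That feature was added for this likeness, so its rank is no result. The correlation was 0.978 with A_44_P212813, rank 75 of 37043, and -0.53 with A_44_P992673. With Acsm2 it was 0.68 (rank 4984), and with the Acsm1 features A_64_P007929 and A_43_P21616 it was 0.57 and 0.23 (ranks 7100 and 14098). After subtracting each group's mean, which removes the treatment difference, the value for A_44_P992673 became 0.78 (rank 1881), and C_CA_D0499 ranked 3. In deviation from the group mean all 3 Acsm5 features were therefore high in corn oil 1 and low in TCEP 2, including the one whose group difference was negative. Acsm2 and Acsm3 ran against each other, at -0.957 over the 6 livers and -0.940 in deviations from the group means. In those deviations Acsm2 followed A_44_P992673 at 0.967 and Acsm3 opposed it at -0.939. For Acsm2, Acsm3 and A_44_P992673 alike, corn oil 1 lay farthest from its group mean. How far these correlations rest on that 1 liver was not tested. Of all 37043 measured features, 324 correlated at 0.95 or more with A_64_P151353 and 13 at 0.99 or more.

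**Figure D3:**
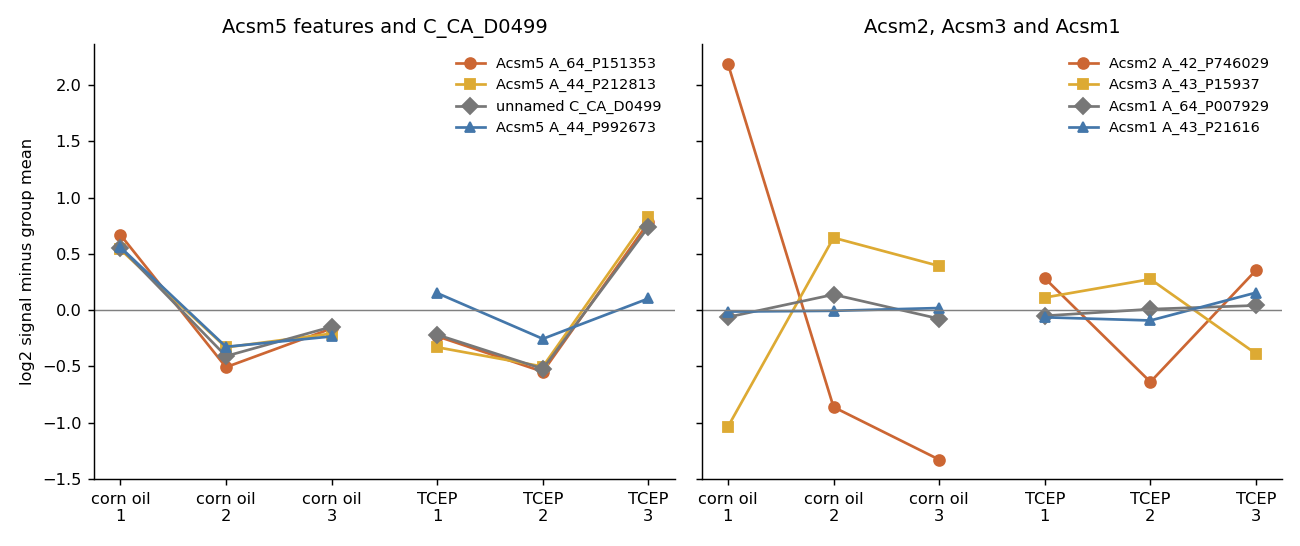
Deviation of each liver from its own group's mean (vertical axis, log2) for the Acsm5 features and C_CA_D0499 (left) and for Acsm2, Acsm3 and Acsm1 (right); lines join livers of 1 group and carry no order. Corn oil 1 is high for all Acsm5 features and for Acsm2 and low for Acsm3, and the Acsm1 features stay near 0.

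Genes with a profile most like A_64_P151353 were named by the highest correlation among genes whose log2 difference was at least 1 in size. Such genes share the group difference by construction. Without that limit the nearest named gene was Rpl35, at 0.996 with a difference of 0.24. Within the limit Ddc, the aromatic amino acid decarboxylase, came first at 0.975. It read 4.64, 4.04 and 4.16 in corn oil and 5.27, 5.42 and 5.46 in TCEP, a log2 difference of 1.11 (SE 0.17). As with Acsm5, the groups did not overlap and corn oil 1 was the highest liver of its group. Tmem125, a transmembrane protein gene, followed at 0.973 with a difference of 1.06 (SE 0.15). Ces2c, a carboxylesterase, stood at 0.968 with a difference of 1.14 (SE 0.21). App, the amyloid precursor protein gene, stood at 0.963 with 1.04 (SE 0.15). The last was Cyp3a23-3a1, an inducible drug-metabolising P450, at 0.946 with 1.28 (SE 0.32). Its livers read 6.92, 5.70 and 6.18 in corn oil and 7.48, 7.34 and 7.82 in TCEP. The order of the livers in that gene was the same as for Acsm5 A_64_P151353. In deviations from the group means the correlations with A_64_P151353 were lower. They were 0.73 for Ddc, 0.63 for Tmem125, 0.79 for Ces2c, 0.54 for App and 0.89 for Cyp3a23-3a1. All 5 differences were smaller than that of A_64_P151353, which follows from its being the largest on the array.

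The profile nearest to Acsm2 also belonged to an unnamed feature of the C_CA series, C_CA_A0110, with a correlation of 0.9998. It read 3.63, 0.59 and 0.20 in corn oil and 3.23, 2.27 and 3.32 in TCEP, a log2 difference of 1.47 (SE 0.91). The order of the 6 livers was that of Acsm2, with corn oil 1 the highest. For Acsm3 the nearest profile was Cp, the copper-carrying plasma protein ceruloplasmin, at 0.996, and for Acsm5 A_44_P992673 it was Pcyox1l at 0.99. These were the first of 37043 features in each ranking, and they share the 6 arrays.

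The genes around the cluster are described because position was not used to choose the family. In RefSeq order Acsm5 is followed by Acsm2, RGD1559600, Acsm1, Acsm4, Thumpd1, LOC134483776, Eri2 and Acsm3, and 5 further genes were taken on each side. Of these 14 other genes 8 had a feature and 5 were measured, through 10 features, 2 of them with a higher TCEP mean. None of the 10 reached an adjusted p of 0.05 in limma, and 0 reached an unadjusted p of 0.05. Over the array 0% reached the former, and 4.84% higher and 4.10% lower the latter, so with 10 features nothing is read from these counts. RGD1559600, a protein-coding gene between Acsm2 and Acsm1, differed by -0.27 (SE 0.23). Thumpd1 differed by -0.15, -0.34 and -0.37 with its 3 features. Eri2, an exonuclease gene whose model overlaps Acsm3, differed by -0.16, -0.22 and -0.27 with 3 features and by 0.57 (SE 0.29) with the fourth. Umod, a kidney tubule gene dim in these livers, differed by -0.04 (SE 0.13) and Dcun1d3 by 0.08 (SE 0.16).

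**Figure D4:**
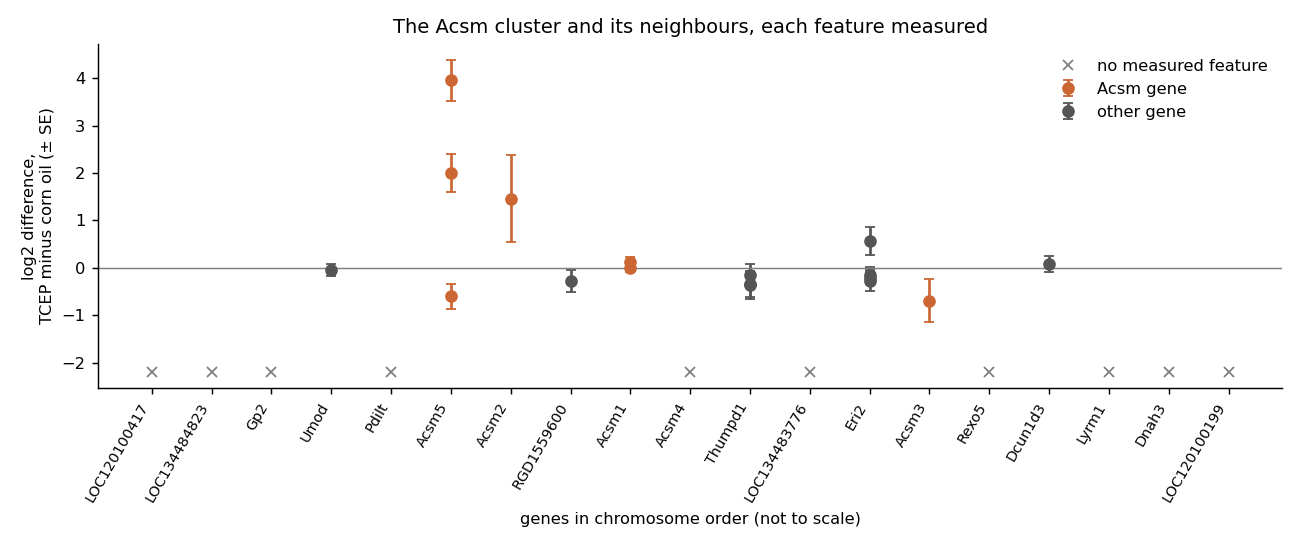
Log2 difference, TCEP minus corn oil (vertical axis; bars ± SE), of every measured feature of the Acsm genes and their neighbours in chromosome order, not to scale; crosses mark genes with no measured feature. The 10 neighbouring features lie between -0.37 and 0.57, and the Acsm5 features lie at -0.60, 2.00 and 3.96.

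Genes that supply, use or compete for the same acyl-CoA were followed through 6 lists of 74 genes, of which 66 were measured. Each gene was read by its brightest feature. None passed an adjusted p of 0.05 in limma, while 3 were higher and 1 lower at an unadjusted p of 0.05. That is 6.06% in both directions, beside 4.84% higher and 4.10% lower over the array. The higher count was 7 with median centring or without corn oil 2, 6 with normexp background correction and 2 without corn oil 3 or TCEP 2. With each gene read by the mean over its measured features, the higher count was 2 and the lower count 1. Over 17 settings that read each gene by 1 feature, Dcakd and Vnn1 were below that p in 17, Ppcdc in 14 and Acsbg1 in 13. The median log2 difference of the 66 genes was 0.12, and that of all measured features was 0.01. With quantile normalization these medians were 0.07 and 0.01.

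The 3 higher genes all belonged to coenzyme A synthesis and turnover, where 11 of 11 listed genes were measured. In this list 10 had a higher TCEP mean and the median was 0.14 (0.08 with quantile normalization). Over the array 51.1% of features had a higher TCEP mean, and 4.84% were higher at an unadjusted p of 0.05 in limma. Groups did not overlap, in either direction, in 16.9% of features. The list was not tested as a set. Dcakd, a gene with a dephospho-CoA kinase domain, read 2.91, 2.63 and 2.48 in corn oil and 3.31, 3.30 and 3.31 in TCEP. The groups did not overlap and the TCEP livers were almost equal. Its difference was 0.63 (SE 0.13; limma unadjusted p = 0.00235, adjusted p = 0.429). Vnn1, the pantetheinase that returns pantothenate from coenzyme A breakdown, read 3.72, 3.60 and 3.62 in corn oil and from 3.99 to 4.36 in TCEP. Again the groups did not overlap, with a difference of 0.47 (SE 0.13; limma unadjusted p = 0.00974, adjusted p = 0.491). Ppcdc, which decarboxylates a coenzyme A precursor, differed by 0.33 (SE 0.11; limma unadjusted p = 0.0232, adjusted p = 0.514). The lowest of its 3 features differed by 0.004 only.

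Among the other acyl-CoA synthetases 15 of 19 were measured, and 11 had a higher TCEP mean, against 51.1% of features over the array. The median was 0.07, which was 0.02 without corn oil 3 and 0.13 with median centring. Acsbg1, a long-chain synthetase of the bubblegum family, was the 1 lower gene of the lists. It read 3.28, 3.79 and 3.54 in corn oil and 2.41, 3.39 and 2.44 in TCEP. TCEP 2 lay within the corn oil range, and the difference was -0.79 (SE 0.30; limma unadjusted p = 0.0352, adjusted p = 0.54).

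The list of glycine and taurine conjugation holds the step that follows Acsm2 activity on foreign acids. It also holds genes outside that step, among them Baat, Gatm and Shmt2. Of its genes 6 of 8 were measured and 0 reached an unadjusted p of 0.05 in limma in either direction. The median was 0.11, and 0.03 without corn oil 2. Glyat, the glycine N-acyltransferase, read 5.25, 4.92 and 5.20 in corn oil and 5.21, 5.44 and 5.07 in TCEP, overlapping groups with a difference of 0.12 (SE 0.14). Baat, which joins bile acids to glycine or taurine, differed by 0.09 (SE 0.16), a sign that turned without corn oil 2 (-0.08).

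All 16 listed genes of mitochondrial beta-oxidation were measured, with 0 at an unadjusted p of 0.05 in limma, 14 higher means and a median of 0.13. Over the whole array 51.1% of features had a higher TCEP mean. The list median was 0.03 with quantile normalization and 0.04 without TCEP 3. Hadh, the short-chain hydroxyacyl-CoA dehydrogenase, read 8.49, 8.32 and 8.36 in corn oil and 8.53, 8.63 and 8.51 in TCEP. Its groups did not overlap but lay close, with a difference of 0.17 (SE 0.09). Decr1, the dienoyl-CoA reductase, differed by 0.13 (SE 0.09) with overlapping groups. Acadm, the medium-chain acyl-CoA dehydrogenase that acts next on an Acsm product, was chosen after its values were seen and differed by 0.003 (SE 0.10).

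The carnitine shuttle had 8 of 8 genes measured, 0 at an unadjusted p of 0.05 in limma and a median of 0.14. That median was 0.0004 without corn oil 3, 0.059 without TCEP 3 and 0.24 without corn oil 2. Crot, the peroxisomal octanoyltransferase, differed by -0.17 (SE 0.15), and Crat, the acetyltransferase, by 0.04 (SE 0.13). The sign of Crat turned without corn oil 3 (-0.08). Cpt1a was chosen after its values were seen and had the largest difference of the list, 0.61 (SE 0.27), with overlapping groups. Its limma unadjusted p was 0.0624 (adjusted p = 0.569). The unadjusted p fell below 0.05 with median centring, normexp or slide as a random block, and without corn oil 2 or TCEP 3. In this list 6 genes had a higher TCEP mean and 2 a lower one, against 51.1% of features higher over the array. The acyl-CoA thioesterases, which undo the synthetase step, had 10 of 12 genes measured, 0 at an unadjusted p of 0.05 and a median of 0.10, which was -0.01 without corn oil 3 and 0.33 without TCEP 2. Acot4 differed by 0.05 (SE 0.36) and Acot2 by 0.04 (SE 0.32), both with overlapping groups and signs that turned when single livers were left out (lowest -0.24 and -0.17).

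**Figure D5:**
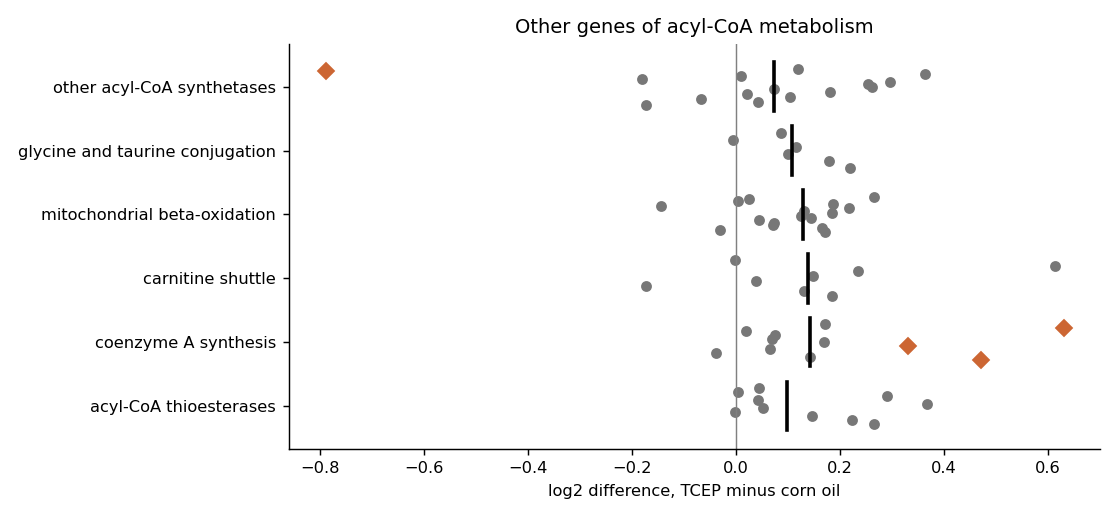
Log2 difference, TCEP minus corn oil (horizontal axis), of the 66 measured genes in 6 lists around acyl-CoA metabolism (points, vertical scatter within a list for legibility only; orange diamonds, unadjusted limma p under 0.05; black bars, list medians). List medians lie between 0.07 and 0.14 here and from -0.01 to 0.33 over the alternative settings, and the genes at an unadjusted p under 0.05 are Acsbg1, Dcakd, Vnn1 and Ppcdc.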

How the data were processed

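Liver RNA of 3 corn oil and 3 TCEP rats was measured on single-colour arrays. Per the file headers, the authors scanned each array with Agilent Feature Extraction 10.7.1.1 (10.7 per the submitters' processing notes), which gave a background-subtracted intensity per spot. The header names rn4 as the array's build. The deposited value table was the same signal as a linear ratio to the array's 75th percentile over 61657 features (largest gap on the log2 scale 0.0004; column medians 0.0953 to 0.1035); no centring was found in it.

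From the deposited intensities log2 values were taken and each array's 75th percentile over non-control features was subtracted. Of 62976 spots 1319 controls were left out, 64 outlier spots were set missing and 5 saturated spots were kept. RefSeq (GRCr8) accessions named 27460 features. Models were fitted with limma 3.58.1 in R 4.3.3 over 37043 features, with Benjamini-Hochberg adjustment. The script was tested on simulated data. With 3 arrays per group, their number limits precision.

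Same-numbered livers of both groups correlated at -0.04, -0.17 and -0.02 in their deviations, and differently numbered ones at -0.07 to 0.12. These values cannot settle whether the numbers pair livers, and the main fit did not use them as pairs. The normexp alternative used median signals, because the files hold no mean foreground. The members, gene lists and tests were chosen with earlier results of these data known. Named genes were every Acsm feature, C_CA_D0499, the 5 genes most like Acsm5 A_64_P151353 (the Acsm5 feature with the highest mean signal over all 6 arrays) with a log2 difference of at least 1, the neighbours by position, and up to 3 genes per list at an unadjusted p under 0.05, or else the 2 brightest. The nearest profiles of the other features were added after the values were seen. Lists of kidney tubule, pancreas, stellate and endothelial markers were also summed. The kidney tubule sum was 13.6 to 14.3 in corn oil and 11.5 to 14.2 in TCEP, and the pancreas sum was 0.77 to 1.25 and 0.79 to 1.32. Of the kidney tubule markers 4 of 9, and of the pancreas markers 3 of 9, were well above background on all arrays. The kidney tubule sum came mostly from Aqp2, with a corn oil mean of 3.68 on the log2 scale. The other measured markers of that list had means below 0. The stellate and fibroblast sum was 35.9 to 38.8 and 34.8 to 36.7, and the endothelial sum 40.6 to 49.5 and 43.0 to 47.0. Of the markers listed, 1 is not reported here.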

Additional observations from a re-analysis of the deposited data

How the results depend on the processing

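Directions of the 3 Acsm5 features, C_CA_D0499, Acsm2, Acsm3 and Acsm1 A_64_P007929 held under all 16 alternatives run, and that of Acsm1 A_43_P21616 turned in 3. The filters on dim features, the trended, robust moderation and the replicate block cannot change these differences. No outlier spot fell on these features, and the deposited table is the same signal within 0.0004 on the log2 scale. Under those settings a held direction shows nothing. The count of features past an adjusted p of 0.05 in limma, 0, became 2 with normexp background correction (Abcc3 and Snx10) and ranged from 0 to 1 when 1 liver was left out (Abcc3 without corn oil 1). The count at an unadjusted p of 0.05, 3312, ranged from 2165 without TCEP 3 to 4241 without corn oil 3. Of the acyl-CoA lists, the 3 higher genes at that p became 7 with median centring, 6 with normexp and 5 with trended, robust moderation, and ranged from 2 to 7 over the left-out livers, being 7 without corn oil 2 and 5 without TCEP 3. The count of lower genes, 1, ranged from 0 to 1, being 0 without corn oil 3, TCEP 1 or TCEP 3. Without corn oil 2 the gene counted was Acsl3, not Acsbg1. With each gene read by the mean over its measured features, 2 genes were higher and 1 lower. With 10 flanking genes on each side, 5 of 13 neighbouring features had a higher TCEP mean, against 2 of 10. With the replicate block the Acsm5 differences were 3.96, 2.00 and -0.60, which that block cannot change. Under it 2520 features had an unadjusted p under 0.05 in limma, against 3312 without it. The count past an adjusted p of 0.05 stayed 0, and the acyl-CoA lists kept 3 higher genes and 1 lower. The cause of these changes was not tested, except that left-out livers mean fewer samples. Acsm4 is limited by signal over background.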

Other observations

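The profile of Acsm2 over the 6 livers had near mirror images among named genes, which were picked after their values were seen. Abcb1b, an export pump of the P-glycoprotein family, correlated with Acsm2 at -0.985 and read -1.86, -0.41 and 0.08 in corn oil and -1.40, -1.25 and -1.59 in TCEP. Acnat2, a peroxisomal amino acid acyltransferase, correlated at -0.983 and read 3.85, 4.66 and 4.72 in corn oil and 4.01, 4.26 and 3.80 in TCEP. In both genes corn oil 1 was the lowest of the corn oil livers and lay within or below the TCEP range, and the groups overlapped. Cholangiocyte markers with their values were Spp1, 1.04 (SE 0.35) higher in TCEP on the log2 scale, and Epcam, 0.52 (SE 0.16) higher.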
